A study of Mus musculus with 16 samples.

Results

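Voltage-gated sodium channels carry the inward current that starts and conducts the action potential. The transcripts of 9 genes of this family were followed in dorsal root ganglia of mouse embryos. The genes were chosen by symbol from the 24421 symbols of the count table: the α subunit genes Scn1a, Scn3a, Scn7a, Scn8a, Scn9a, Scn10a and Scn11a, and the β subunit genes Scn2b and Scn3b. Another 3 sodium channel genes, Scn2a1, Scn4a and Scn4b, served as the nearest comparison. The ganglia were lumbar, from C57BL/6 embryos at embryonic day 13.5, and their RNA was sequenced by a polyA-based method in 16 libraries. KO_alpha3 held 4 libraries labelled as importin α3 -/- (gene Kpna4), and KO_beta held 4 with a knockout of the 3′UTR of importin β1 (gene Kpnb1). WT_beta and WT_alpha3 held 4 wild-type libraries each, labelled with 1 of these lines. The design text assigns all 8 wild types to both projects because of an effect of sex, so each knockout group was compared with all 8.

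An α subunit forms the whole sodium-selective pore, and a β subunit is a small membrane protein with a single transmembrane segment that alters the gating and surface level of the pore. Scn9a, Scn10a and Scn11a encode the channels known from adult nociceptors, the neurons that detect painful stimuli. Scn9a sets the threshold for firing, Scn10a carries most of the current of the action potential in these cells, and Scn11a carries a persistent current near the resting potential. Scn3a is the main embryonic form in the nervous system. Scn8a is the channel of mature nodes of Ranvier, and Scn1a is found in larger sensory neurons and in the brain. Scn7a encodes Nax, a relative of these channels that responds to extracellular sodium and not to voltage. The β2 protein of Scn2b is joined to the pore by a disulfide bond, and the β3 protein of Scn3b is held without one. Importins carry proteins with a nuclear localization signal into the nucleus.

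On the mouse build mm10, 4 of the α genes lay within a cluster on chromosome 2, all transcribed from the minus strand: Scn3a at chr2:65457118-65567591, Scn1a at chr2:66270781-66440837, Scn9a at chr2:66480080-66635114 and Scn7a at chr2:66673426-66784910. Scn10a, at chr9:119608456-119719322, and Scn11a, at chr9:119753763-119825456, were neighbours on the minus strand of chromosome 9. Both β genes lay elsewhere on that chromosome on the plus strand, Scn3b at chr9:40269216-40291618 and Scn2b at chr9:45117876-45130070. Scn8a lay alone at chr15:100869863-101045938 on the plus strand. Of the 9 genes, 1 overlapped another gene: Scn9a shared sequence with Gm13629 on the opposite strand, which had 3 to 14 reads per library.

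The RefSeq promoter table of the same build (GRCm38.p6), which gives 250 bases before to 50 bases after each start, held 8 promoters of 7 of the genes. The promoters were searched on both strands for the letters of 4 motifs of factors known in sensory neurons or in most cells. TGTGGT, the core bound by Runx factors, was in 1 of the 8, that of Scn2b, against 16.8% of all 32851 promoters. ATTAAT, a POU4 sequence, was in 1, that of Scn11a, against 4.75% of all. GGGCGG, the GC box of the Sp and Klf factors, was in 1, that of Scn7a, against 35.7% of all. CANNTG, the E-box of the basic helix-loop-helix factors, was in 7 of the 8, against 72.3% of all. No match overlapped another in these promoters, and a match describes the sequence and is not a site of binding. The windows below run 5′ to 3′ on the strand of the gene, with the match in capitals. They are shown because these 4 genes varied most between libraries.
Scn2b, chr9:45117761-45117790, plus strand, Runx core read on the opposite strand: tgaaatccaccaACCACAatatttactcca
Scn11a, chr9:119825664-119825693, minus strand, POU4 sequence: acctgtttctttATTAATgatgctttttgc
Scn10a, chr9:119718985-119719014, minus strand, E-box: aggagccccggaCAAGTGtaagtttcgcag
Scn7a, chr2:66785019-66785048, minus strand, GC box read on the opposite strand: tgtcaatatcagCCGCCCacgcttatctag

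Library totals were 19682595 to 26873361 counts, and the 9 genes had from 23 counts (the lowest library of Scn11a) to 20963 (the highest of Scn9a). Kpna4 was at 0.619 to 1.13 CPM in KO_alpha3, against 69.5 to 81.3 CPM in the 8 wild types (exact 2-sided permutation test on log2 values, p = 0.00202, the smallest that 495 splits allow), so the target transcript was nearly absent in every library of this group. Kpnb1 was at 514 to 563 CPM in KO_beta, against 390 to 530 CPM in the 8 wild types (exact permutation p = 0.0121); with only its 3′UTR removed, this does not check the labels. A CPM value is a read count divided by the TMM-adjusted size of its library. Nothing in the labels says that libraries came from separate embryos or litters, so p-values measure the spread between these samples, which may be technical in part. In 3 libraries, KO_alpha3 81, WT_beta 399 and WT_alpha3 79, the lumbar Hox genes were nearly absent, against their label: Hoxa10 was at 0.877 to 4.38 CPM there, against 22.5 to 84.4 CPM in the other 13, Hoxc10 at 1.67 to 4.62 against 20.8 to 97.1 CPM, and Hoxd10 at 0.376 to 0.836 against 2.64 to 42.6 CPM. The shares, slopes and correlations that rest on these libraries are also given without them.

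Per kilobase of transcript, the most abundant of the 9 were the β3 transcript and the 3 channels Scn9a, Scn10a and Scn7a. Over the 16 libraries the mean level was 65.3 ± 17.5 CPM per kb for Scn3b, 57.3 ± 13.7 for Scn9a and 53 ± 19.1 for Scn10a (SD, n = 16). Scn7a was at 24.5 ± 8.79 CPM per kb and Scn3a, the embryonic form, at 9.54 ± 1.26. Scn2b was at 5.08 ± 2.05 CPM per kb, Scn8a at 4.25 ± 0.651, Scn11a at 1.87 ± 1.88 and Scn1a at 0.905 ± 0.288. Scn10a was above Scn7a, Scn7a above Scn3a and Scn3a above Scn2b in all 16 libraries. The other neighbours changed places in some libraries: Scn3b was above Scn9a in 12 of 16, Scn9a above Scn10a in 13, Scn2b above Scn8a in 12, Scn8a above Scn11a in 15 and Scn11a above Scn1a in 12. Per kilobase of coding sequence, Scn2b, with its short reading frame, moved above Scn3a and Scn7a on the mean, and the order of the rest was kept.

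Scn9a and Scn10a made up most of the pore-forming transcripts in every library. Of the summed CPM per kb of the 7 α transcripts, Scn9a took 31.8 to 44.4% and Scn10a 19.9 to 38%. Scn7a took 13 to 20%, Scn3a 4.38 to 10.5%, Scn8a 2.23 to 6.8%, Scn11a 0.279 to 3.65% and Scn1a 0.327 to 1.11%. In the stacked shares Scn10a and Scn11a were lowest, and Scn9a, Scn3a, Scn8a and Scn1a highest, in WT_alpha3 79, and Scn11a was highest in WT_alpha3 55. Without the 3 libraries low in Hox10 genes, Scn9a took 31.8 to 40.8%, Scn10a 30.7 to 38%, Scn3a 4.38 to 9.82%, Scn8a 2.23 to 4.13% and Scn1a 0.327 to 0.746%.

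**Figure D1:**
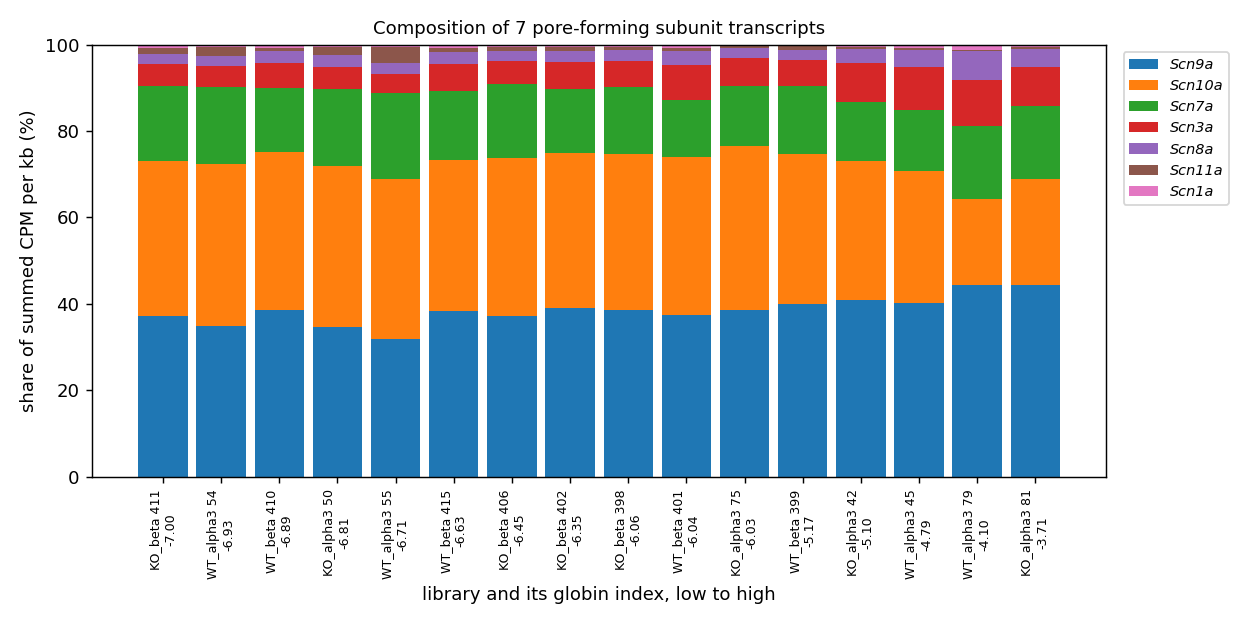
Composition of the 7 pore-forming transcripts in each library: the vertical axis is the share of summed CPM per kb of transcript in percent, and libraries run from the lowest to the highest globin index, printed under each name. Scn9a takes 31.8 to 44.4% and Scn10a 19.9 to 38%, with the lowest Scn10a share in WT_alpha3 79.

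Over the 16 libraries, the nociceptor channels Scn10a and Scn11a, both β subunits and Scn7a varied most. Scn11a differed 40.4-fold between its lowest and highest library, Scn10a 5.73-fold, Scn2b 4.06-fold, Scn7a 3.66-fold, Scn3b 2.91-fold, Scn1a 2.73-fold and Scn9a 2.63-fold. Scn8a and Scn3a differed least, by 1.75-fold and 1.7-fold.

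Of the nociceptor channels, Scn9a had 422, 455, 625 and 639 CPM in KO_alpha3, 529, 647, 742 and 789 in KO_beta, 411, 536, 591 and 651 in WT_beta, and 300, 406, 613 and 666 in WT_alpha3. Scn10a had 160, 244, 419 and 467 CPM in KO_alpha3, 355, 404, 484 and 497 in KO_beta, 273, 316, 366 and 416 in WT_beta, and 91.8, 212, 449 and 526 in WT_alpha3. Scn11a had 2.67, 3.2, 5.21 and 20.6 CPM in KO_alpha3, 8.42, 8.62, 9.98 and 17.5 in KO_beta, 4.74, 7.25, 8.97 and 9 in WT_beta, and 1.13, 2.64, 21.2 and 45.8 in WT_alpha3. For Scn10a and Scn11a, KO_alpha3 and WT_alpha3 each held both low and high libraries, and KO_beta and WT_beta lay closer together. For Scn9a only WT_alpha3 was wider, with an SD of 172 CPM, against 113 in KO_alpha3, 115 in KO_beta and 102 in WT_beta. Every group overlapped the others for all 3 channels. WT_alpha3 79 was the lowest library for each, and the highest was WT_alpha3 55 for Scn10a and Scn11a and KO_beta 398 for Scn9a.

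In both β subunits, as in Scn10a and Scn11a, KO_alpha3 and WT_alpha3 between them held the lowest and the highest libraries. Scn2b had 10.1, 12, 21.9 and 38.3 CPM in KO_alpha3, 23.3, 24, 26.7 and 31.5 in KO_beta, 19.3, 21.5, 23.6 and 26 in WT_beta, and 10.4, 13.1, 35.4 and 41.1 in WT_alpha3. Scn3b had 155, 162, 276 and 336 CPM in KO_alpha3, 292, 305, 317 and 351 in KO_beta, 245, 264, 285 and 308 in WT_beta, and 121, 223, 345 and 353 in WT_alpha3. All groups overlapped, and the spread was again widest in the 2 groups of the α3 line.

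Of the other α genes, Scn7a had 114, 120, 167 and 247 CPM in KO_alpha3, 181, 183, 239 and 256 in KO_beta, 106, 158, 181 and 187 in WT_beta, and 85.4, 107, 232 and 312 in WT_alpha3. Scn1a had 4.51, 4.67, 5.39 and 10.4 CPM in KO_alpha3, 6.05, 7.53, 8.4 and 11.1 in KO_beta, 4.6, 6.68, 8.65 and 9.72 in WT_beta, and 6.4, 6.44, 8.69 and 12.3 in WT_alpha3. Both were lowest in libraries of the α3 line and highest in WT_alpha3 55, with all groups overlapping. Scn3a had 82.6, 92, 97.2 and 102 CPM in KO_alpha3, 74.7, 97.5, 102 and 118 in KO_beta, 77, 87.1, 93.8 and 95.5 in WT_beta, and 69.1, 84.6, 89 and 96.7 in WT_alpha3. Scn8a had 42.1, 44.3, 45.3 and 58.2 CPM in KO_alpha3, 37.4, 49.7, 54.4 and 57 in KO_beta, 35.1, 41, 50.6 and 50.7 in WT_beta, and 47.9, 48.7, 53.5 and 61.4 in WT_alpha3. These 2 genes varied least across the 16 libraries and their groups overlapped throughout.

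**Figure D2:**
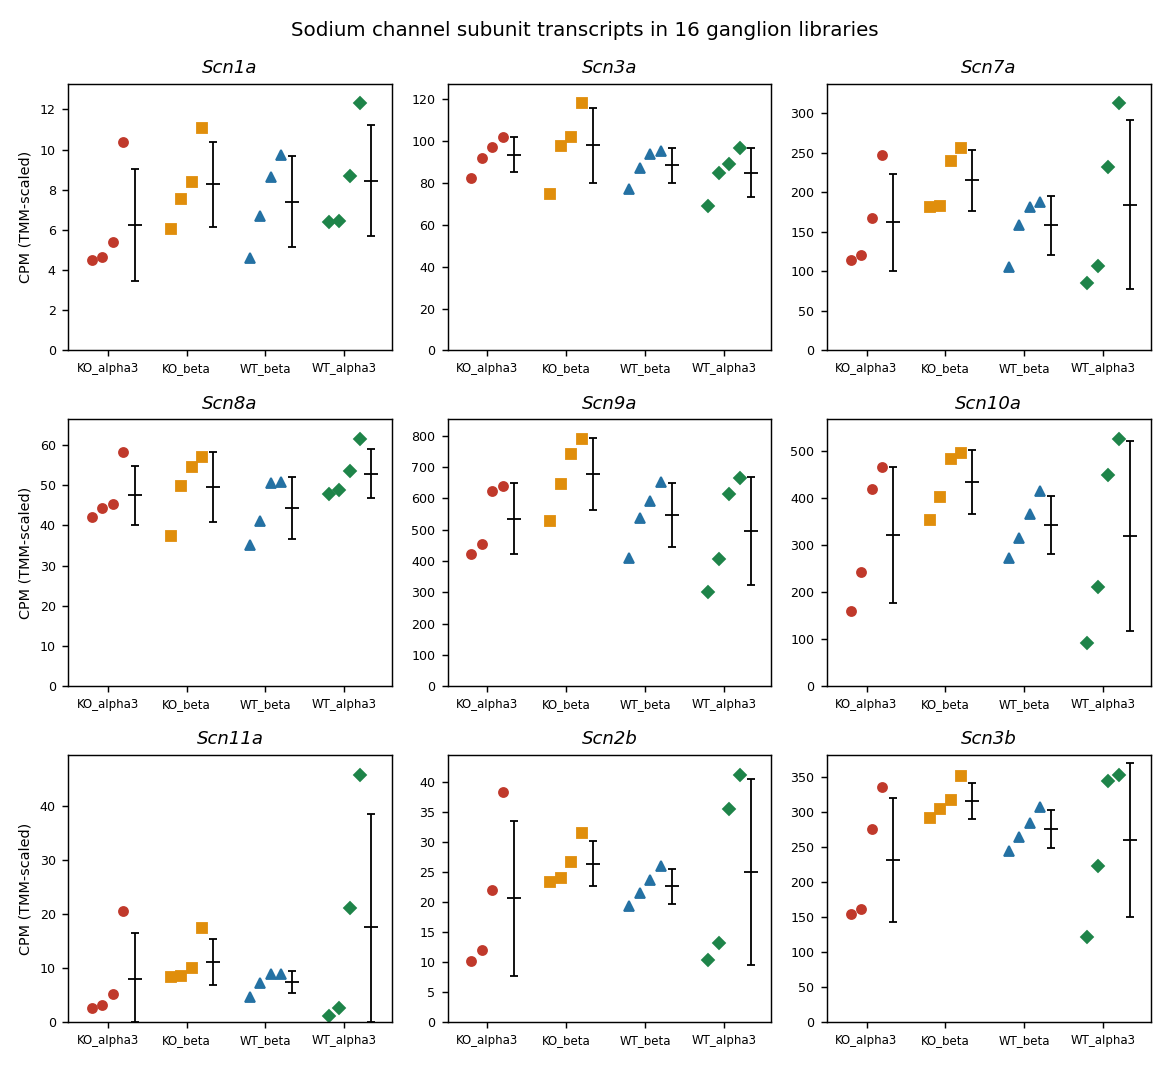
Level of each of the 9 transcripts in CPM (TMM-scaled, linear axis from 0), with 1 point per library sorted within its group and, to the right of each group, the mean ± SD (n = 4; the lower end of a bar stops at 0). All groups overlap for every gene, and KO_alpha3 and WT_alpha3 spread widely for Scn10a, Scn11a, Scn2b and Scn3b.

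Primitive red cells of the embryo switch from the globin gene Hbb-bh1 to Hbb-y as they mature. The log2 ratio of Hbb-bh1 to Hbb-y counts, here called the globin index, was therefore taken as an age scale that does not use neuronal transcripts. A higher index was read as an earlier stage. All 16 libraries are labelled embryonic day 13.5, so the labels do not check this reading. Hbb-bh1 had 49 to 6678 reads per library. The index was -6.81, -6.03, -5.10 and -3.71 in KO_alpha3, -7.00, -6.45, -6.35 and -6.06 in KO_beta, -6.89, -6.63, -6.04 and -5.17 in WT_beta, and -6.93, -6.71, -4.79 and -4.10 in WT_alpha3. The index thus differed within each group, and least in KO_beta. A gap separated 11 libraries at -6.03 or below from 5 at -5.17 or above, which were KO_alpha3 81 and 42, WT_beta 399, and WT_alpha3 79 and 45.

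All 3 nociceptor channels, both β subunits, Scn7a and Scn1a fell as the index rose, that is, towards libraries read as earlier, whereas the slopes of Scn3a and Scn8a did not pass. In a fit of log2 level on the index with a term for each of the 4 groups, 7 of the 9 genes fell with the index, 0 of 9 rose and 2 did not pass (edgeR quasi-likelihood test, Benjamini-Hochberg adjusted p under 0.05 over 15641 genes, which included all 9). Of all genes tested, 46.7% passed by the same rule, 26.1% falling and 20.5% rising. The median slope of the 9 genes was -0.38, and that of all genes -0.005, in log2 per unit of index. In bulk ganglia, fewer cells of a type and less RNA per cell cannot be told apart.

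Scn11a had the steepest slope of the 9. It was at 4.74 to 45.8 CPM (median 9) in the 11 libraries of low index, against 1.13 to 7.25 CPM (median 2.67) in the 5 of high index. The ranges overlapped and the medians differed 3.37-fold. Its level was 2.19-fold lower per unit of index (slope -1.13 ± 0.21 SE, edgeR adjusted p = 0.000575), a slope at the 0.352 percentile of all genes. Scn10a was at 273 to 526 CPM (median 419) in the 11, against 91.8 to 316 CPM (median 212) in the 5. It fell by 1.48-fold per unit (slope -0.57 ± 0.09, edgeR adjusted p = 0.000152), and only WT_beta 399 of the 5 reached the range of the 11. Scn9a was at 411 to 789 CPM (median 639) in the 11, against 300 to 536 CPM (median 422) in the 5, and its slope was shallower, -0.27 ± 0.06 (edgeR adjusted p = 0.00169).

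Scn2b was at 19.3 to 41.1 CPM (median 26) in the 11 libraries, against 10.1 to 21.5 CPM (median 12) in the 5, with a slope of -0.56 ± 0.08 (edgeR adjusted p = 0.00013). Scn3b was at 245 to 353 CPM (median 308) in the 11, against 121 to 264 CPM (median 162) in the 5, with a slope of -0.38 ± 0.06 (edgeR adjusted p = 0.000146). Again WT_beta 399 alone of the 5 overlapped the 11 for both β subunits. Scn7a, the sodium-sensing relative, was at 106 to 312 CPM (median 187) in the 11, against 85.4 to 158 CPM (median 114) in the 5, with a slope of -0.42 ± 0.08 (edgeR adjusted p = 0.000919). Scn1a was at 4.51 to 12.3 CPM (median 8.65) in the 11, against 4.6 to 6.44 CPM (median 5.39) in the 5, with a slope of -0.31 ± 0.09 (edgeR adjusted p = 0.00804). For Scn1a the low-index library KO_alpha3 75 was the lowest of all 16, and without KO_alpha3 50 its slope was -0.22 and no longer passed.

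The embryonic channel Scn3a was at 74.7 to 118 CPM (median 93.8) in the 11 libraries, against 69.1 to 97.2 CPM (median 82.6) in the 5. Its slope was -0.06 ± 0.05, with a 95% interval of -0.17 to 0.04 (edgeR adjusted p = 0.297), and it turned positive, to 0.08, without the 3 libraries low in the Hox10 genes. The nodal channel Scn8a was at 37.4 to 61.4 CPM (median 50.6) in the 11, against 35.1 to 53.5 CPM (median 45.3) in the 5, with a slope of -0.09 ± 0.05 and a 95% interval of -0.20 to 0.03 (edgeR adjusted p = 0.195). Both intervals overlapped those of the shallowest falls, Scn9a at -0.39 to -0.15 and Scn1a at -0.50 to -0.13, and the difference between these slopes was not tested.

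**Figure D3:**
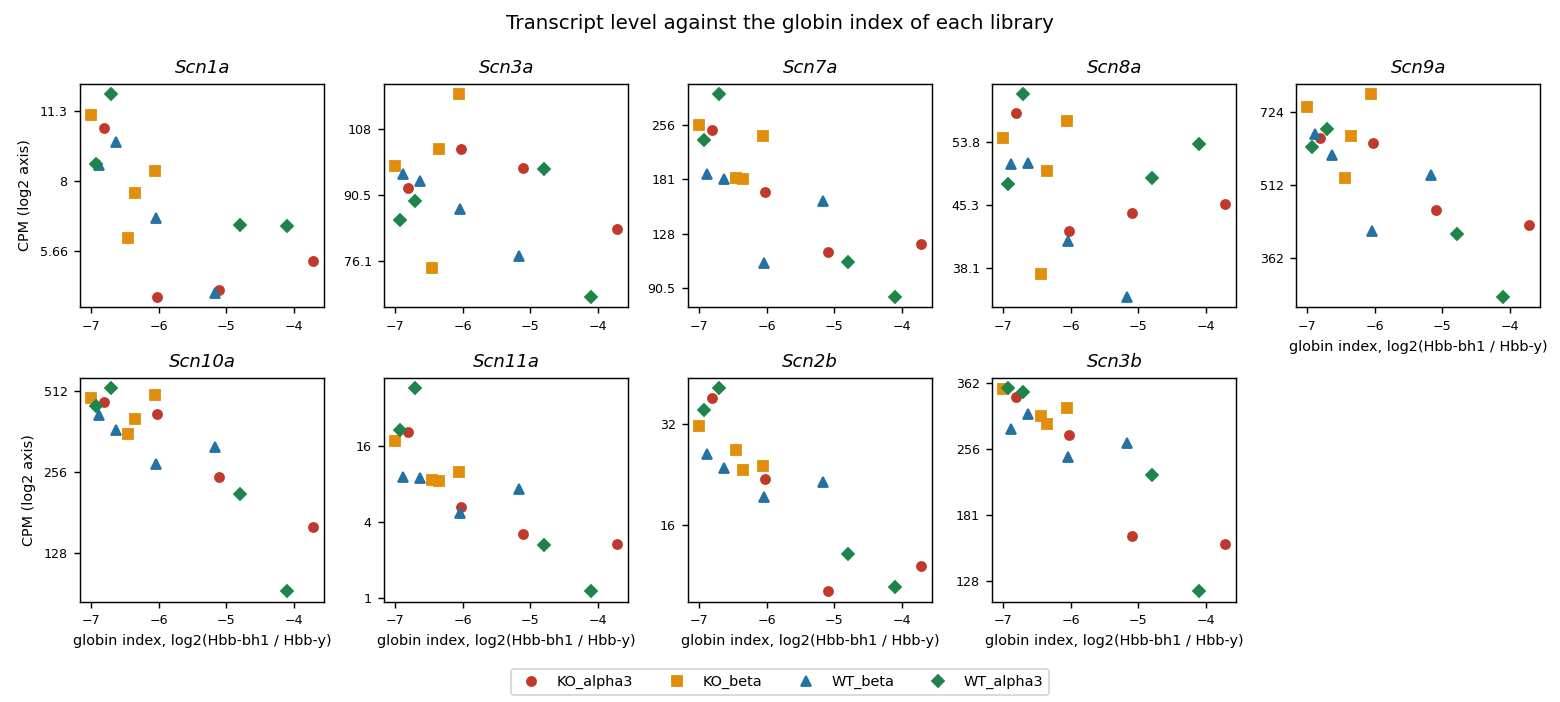
Level of each transcript (CPM on a log2 axis) against the globin index of the library, log2(Hbb-bh1 / Hbb-y), with higher values read as earlier, for the 9 genes. Each point is 1 library. Scn10a, Scn11a, Scn2b and Scn3b lie lower in the 5 libraries at -5.17 or above, and Scn3a and Scn8a vary least.

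Across the 16 libraries, Pearson's r of log2(CPM + 1) with the index was -0.90 for Scn3b, -0.89 for Scn10a, -0.88 for Scn2b and -0.82 for Scn11a (permutation tests of 100000 resamples, 2-sided; p adjusted over the 9 relations 6.75e-05 for each, raw p 2e-05, 3e-05, 2e-05 and 3e-05 in that order). Spearman's rho was -0.90, -0.79, -0.89 and -0.90 in the same order. For Scn7a r was -0.80 and rho -0.84, with a permutation p for r of 0.00024 (adjusted 0.000432), and for Scn9a r was -0.79 and rho -0.72, with a permutation p of 0.00041 (adjusted 0.000615). Scn1a had r -0.67 and rho -0.79 (permutation p = 0.00447, adjusted 0.00575). Scn3a, with r -0.37 and rho -0.18 (permutation p = 0.161, adjusted 0.181), and Scn8a, with r -0.28 and rho -0.42 (permutation p = 0.303, adjusted 0.303), did not pass. Without WT_alpha3 79, Scn8a had r -0.41 and rho -0.54 (permutation tests, adjusted p = 0.141 for r and 0.0449 for rho). Without the 2 libraries farthest from the median index, KO_alpha3 81 and WT_alpha3 79, the same 7 relations passed, with r from -0.85 (Scn2b) to -0.67 (Scn9a). Without the 3 libraries low in Hox10 genes the same 7 passed by r (permutation tests, adjusted p 0.00144 to 0.0132). Their r was -0.90 for Scn2b, -0.85 for Scn3b, -0.83 for Scn10a, -0.80 for Scn11a, -0.79 for Scn7a, -0.70 for Scn1a and -0.69 for Scn9a, while Scn8a was at -0.34 and Scn3a at 0.26. By rho Scn9a did not pass there (-0.57, permutation test, adjusted p = 0.0606).

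By r, the relation passed for 6 of 9 genes in the α3 line, which has the widest range of the index (-6.93 to -3.71). It passed by r for fewer or none of the 9 where the index varied less. In the 8 libraries of the α3 line alone, r was between -0.93 and -0.89 for Scn3b, Scn10a, Scn2b, Scn7a, Scn9a and Scn11a (exact permutation tests, adjusted p = 0.0093 each), and the other 3 genes did not pass. By Spearman's rho only Scn3b (-0.93), Scn10a (-0.88) and Scn11a (-0.86) passed there. Scn7a, Scn9a and Scn2b did not pass by rho (exact permutation tests, adjusted p 0.0662 to 0.0687). In the 8 of the β line, r was negative for all 9 genes, from -0.84 (Scn1a) to -0.33 (Scn3a), and 0 of 9 passed, the lowest adjusted exact permutation p being 0.0859. Among the 11 libraries of low index, 4 passed by r: Scn2b at -0.74, Scn1a at -0.71, Scn3b at -0.70 and Scn11a at -0.68 (permutation tests, adjusted p = 0.0488 each). The same 4 passed by rho, and so did Scn7a (rho -0.69, permutation test, adjusted p = 0.0415). In the fit across all genes, 6 of 9 fell past the threshold in the α3 line alone, where 24.2% of genes did, 0 of 9 fell past the threshold in the β line alone, where 0.481% of genes did, and 1 of 9, Scn2b, without the 5 libraries of high index, where 1.13% did.

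The difference of the slopes of the 2 lines was tested as an interaction, added after the data were seen. The slope of Scn10a was -0.19 ± 0.16 in the β line and -0.66 ± 0.08 in the α3 line, a β minus α3 difference of 0.47 ± 0.18 (edgeR adjusted p = 0.193). Scn3b differed by 0.30 ± 0.13 (edgeR adjusted p = 0.231) and Scn2b by 0.41 ± 0.18 (edgeR adjusted p = 0.264). None of the 9 differences passed the adjusted threshold, which 0.895% of all genes did, and 3 of 9 had an unadjusted p under 0.05, against 18.1% of all genes. DESeq2 was not run for this test.

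Other measures moved with the index beside these genes, and their part in the fall was not tested unless a value is given. The cell cycle list lay at a mean log2 CPM of 5.05 to 5.87 in the 11 libraries of low index, against 6.08 to 6.87 in the 5, and all 20 of its genes rose with the index. The pan-neuronal list lay at 9.47 to 9.97 in the 11, against 9.04 to 9.61 in the 5, and 9 of its 15 genes fell, with a median slope of -0.17. With the mean of that list as a covariate, 0 of the 9 channel genes passed (edgeR, 2.08% of all genes fell). The largest slopes left were those of Scn11a, -0.31, and Scn10a, -0.30. Scn2b was at -0.26, Scn1a at -0.24, Scn3b at -0.16, and Scn7a and Scn9a at -0.09 each. The list and the index had r = -0.79 over the 16 libraries. The glial list, like the cell cycle list, did not overlap, at 6.62 to 6.91 in the 11, against 6.03 to 6.48 in the 5. Of its 10 genes 5 fell past the threshold and 4 had a positive slope, with a median of -0.08. The progenitor list lay at 4.17 to 5.34 in the 11, against 4.57 to 6.23 in the 5, and 8 of its 12 genes rose, with a median slope of 0.54. Spinal cord markers lay at 0.28 to 2.79 in the 11 and 0.49 to 2.48 in the 5; 10 of 10 had a positive slope, with a median of 0.83, and 3 passed. Sympathetic markers lay at 1.59 to 4.86 in the 11 and 1.40 to 5.86 in the 5; 7 of 8 had a positive slope, with a median of 1.46, and 1 rose and 1 fell past the threshold. Muscle markers lay at 2.45 to 5.53 in the 11 and 1.67 to 4.63 in the 5, with a median slope of 0.09 and 1 of 12 falling. The 4 libraries set aside for other tissues were WT_alpha3 45, WT_alpha3 79, WT_beta 399 and WT_beta 401, all wild types. They were fixed by name and not by a computed rule, and they were not the highest on every list. WT_beta 399 stood out for liver markers, at a mean log2 CPM of 7.50, but KO_beta 398, which was kept, was at 4.87, against 2.18 in WT_alpha3 45. Of the 4, all but WT_beta 401 were among the 5 of high index. Without these 4, where 14.3% of all genes fell, the slopes of Scn1a, -0.25 (edgeR adjusted p = 0.185), and Scn9a, -0.18 (adjusted p = 0.0742), no longer passed.

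The 3 libraries low in Hox10 genes were all among the 5 of high index. Without them the same 7 genes fell with the index, as 22.7% of all genes did, and the slopes were -1.57 ± 0.22 for Scn11a, -0.80 ± 0.08 for Scn2b, -0.52 ± 0.09 for Scn10a and -0.38 ± 0.06 for Scn3b (edgeR adjusted p = 0.000144 for Scn11a and 0.000568 for Scn10a). KO_alpha3 42 and WT_alpha3 45, the 2 of the 5 that are not low in these genes, had 244 and 212 CPM of Scn10a, 3.2 and 2.64 of Scn11a, 10.1 and 13.1 of Scn2b, and 162 and 223 of Scn3b, each below the lowest of the 11 libraries. The other falling genes did not follow: Scn7a, at 114 and 107 CPM, and Scn1a, at 4.67 and 6.44, lay within the range of the 11. Scn9a, at 455 and 406 CPM, lay on either side of their minimum of 411. The share of all genes lying below the 11 in both libraries was not counted. With the mean of the 3 Hox10 genes as a covariate, 7 of 9 fell, as 25.2% of all genes did. That mean and the index had r = -0.75 over the 16 libraries, so this fit cannot fully separate them.

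Ratios of counts within a library do not depend on its scaling. The log2 ratio of Scn10a to Scn9a counts was -0.69 to -0.34 in the 11 libraries of low index, against -1.71 to -0.76 in the 5, with no overlap. The nearest libraries were close, WT_beta 415 at -0.69 and WT_beta 399 at -0.76. Only the pairs given here were taken, and the share of all pairs of genes without overlap was not counted. The log2 ratio of Scn3a to Scn10a counts was -2.56 to -1.65 in the 11, against -2.04 to -0.41 in the 5, and overlapped only in WT_beta 399. The log2 ratios of Scn3a to Scn9a counts (-2.93 to -2.24 in the 11, -2.80 to -2.07 in the 5) and of Scn11a to Scn10a counts (-6.33 to -3.52 in the 11, -6.34 to -5.45 in the 5) overlapped more widely. Without the 3 libraries low in Hox10 genes the ratio of Scn10a to Scn9a was -0.90 and -0.94 in the 2 remaining. Between the β subunits, the log2 ratio of Scn2b to Scn3b counts was -3.73 to -3.07 in the 11 and -4.09 to -3.55 in the 5 and overlapped.

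No difference in the 9 transcripts was detected without importin α3, and KO_alpha3 overlapped the 8 wild types for each of them. None of the 9 passed the threshold in KO_alpha3 against the 8 wild types, and none had an unadjusted p under 0.05 in edgeR. Of all genes tested, 0.00639% passed, which was Kpna4 alone, and 1696 had an unadjusted p under 0.05. Without KO_alpha3 50, 124 genes passed in edgeR, and with all libraries DESeq2 called 128, none of the 9 in either. The log2 fold changes had a median of -0.08 over the 9 genes and -0.006 over all genes, with 2 of the 9 positive. Scn10a averaged 323 ± 144 CPM in KO_alpha3 and 343 ± 61.9 and 319 ± 202 CPM in WT_beta and WT_alpha3 (SD, n = 4 each), a log2 fold change of -0.04 ± 0.36 (edgeR adjusted p = 0.981). For Scn9a it was 0.04 ± 0.20 (edgeR adjusted p = 0.966), and for Scn3b -0.21 ± 0.25 (adjusted p = 0.809).

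The precision of this comparison differed by gene. The 95% interval was -0.12 to 0.34 for Scn3a and -0.33 to 0.26 for Scn8a, the 2 genes whose slopes on the index did not pass. Scn3a was above the highest wild type in 2 of 4 KO_alpha3 libraries and, in the other knockout, in 3 of 4 KO_beta libraries, with log2 fold changes of 0.11 ± 0.11 and 0.18 ± 0.11. Scn9a was above it in 2 of 4 KO_beta libraries, and Scn1a and Scn2b were below the lowest wild type in 1 KO_alpha3 library each. Both knockouts were set against the same 8 wild types, and the share of all genes lying outside their range was not counted. The interval was -0.80 to 0.72 for Scn10a and -2.35 to 1.02 for Scn11a, whose log2 fold change was -0.67 ± 0.79 (edgeR adjusted p = 0.81). Without KO_alpha3 50, the library of lowest index in its group, the value for Scn11a was -1.73, and without WT_alpha3 55 it was 0.01. KO_alpha3 had a mean index of -5.41 ± 1.33, against -6.18 ± 0.76 in WT_beta and -5.63 ± 1.40 in WT_alpha3 (SD, n = 4 each). With the index as a covariate Scn10a was at 0.24, Scn7a at 0.15 and Scn2b at 0.01, each of the opposite sign to the value without it. The other 6 kept their sign, from -0.21 (Scn1a) to 0.19 (Scn9a), and none of the 9 passed. Without the 4 wild types set aside for other tissues, 1 of the 9 was positive, Scn3a at 0.06. The rest ran from -1.41 (Scn11a) and -0.65 (Scn1a) to -0.13 (Scn8a), and none passed. The wild types left had an index of -6.93 to -6.63, and the parts of index and tissue were not tested.

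Knockout of the importin β1 3′UTR likewise moved none of the 9 past the threshold against the 8 wild types. In edgeR 0% of all genes passed, with 349 at an unadjusted p under 0.05, and DESeq2 called 1 gene, which was none of the 9. Of the 9 genes, 8 had a positive log2 fold change and none an unadjusted p under 0.05; their median was 0.18, against -0.003 over all genes. Scn9a averaged 677 ± 115 CPM in KO_beta, and 547 ± 102 and 496 ± 172 CPM in WT_beta and WT_alpha3 (SD, n = 4 each), and its log2 fold change of 0.37 ± 0.20 had the lowest p of the 9 (0.0742 in edgeR before adjustment, 0.932 after). Scn10a averaged 435 ± 67.3 CPM in KO_beta, a log2 fold change of 0.39 ± 0.35, and Scn7a 215 ± 38.6 CPM, a log2 fold change of 0.33 ± 0.30; the edgeR adjusted p-values of all 9 were 0.932 to 0.965. The 95% interval was -0.04 to 0.79 for Scn9a and -0.31 to 0.97 for Scn7a. KO_beta libraries lay above the median of the 8 wild types in 4 of 4 cases for Scn7a, Scn10a, Scn11a, Scn2b and Scn3b, and within the wild-type range for each of these 5. The share of all genes lying this way was not counted. These 5 genes ran together over the 16 libraries (pairwise r 0.86 to 0.95), and the fitted log2 fold change of Scn11a was negative, -0.17.

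KO_beta had the lowest mean index of the 4 groups, -6.47 ± 0.39 (SD, n = 4), although single libraries of each other group had a lower index than 3 of its 4. The pan-neuronal list was also on the positive side in KO_beta, with 13 of 15 log2 fold changes above 0 and a median of 0.17, and the cell cycle list was below 0 in 20 of 20, with a median of -0.61 and 0 of 20 past the threshold. With the index as a covariate, the log2 fold changes in KO_beta were 0.26 for Scn9a, 0.21 for Scn10a, 0.17 for Scn7a, 0.15 for Scn3a, 0.08 for Scn3b, 0.00 for Scn8a, -0.07 for Scn2b, -0.08 for Scn1a and -0.39 for Scn11a. Without the 4 libraries set aside for other tissues, Scn3a was at 0.11 and Scn9a at 0.10, and the other 7 were below 0, from -0.92 (Scn11a) to -0.01 (Scn10a). As all 4 were wild types, this set KO_beta against WT_alpha3 54, WT_alpha3 55, WT_beta 410 and WT_beta 415 alone. These had an index of -6.93 to -6.63, and the parts of index and tissue in the change were not tested. The 2 knockout comparisons share their 8 wild types.

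**Figure D4:**
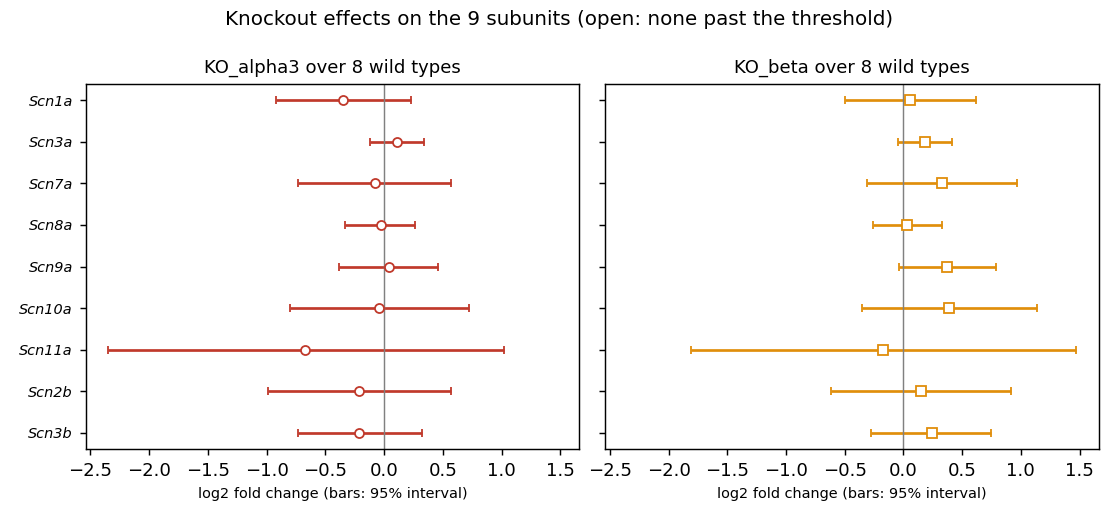
Log2 fold change of each of the 9 transcripts in KO_alpha3 (left panel) and in KO_beta (right panel) over the 8 wild types, with the 95% interval of the edgeR fit; open symbols mark values that did not pass the adjusted threshold. Every interval includes 0, from the narrowest, those of Scn3a and Scn8a, to the widest, those of Scn11a.

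WT_beta was set against WT_alpha3 because lines can differ without a knockout. None of the 9 genes passed between WT_beta and WT_alpha3 in edgeR or in DESeq2, and none had an unadjusted p under 0.05, where 0.0192% of all genes passed (0.0128% higher in WT_beta) and 824 had an unadjusted p under 0.05. The largest difference was that of Scn11a, at 7.49 ± 2.01 CPM in WT_beta and 17.7 ± 20.8 CPM in WT_alpha3 (SD, n = 4 each), a log2 fold change of -1.24 ± 0.87. That of Scn10a was 0.10 ± 0.43, and the edgeR adjusted p-values of the 9 were 0.994 to 1. The median over the 9 genes was -0.14, against -0.021 over all genes.

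Of the 3 further sodium channel genes, 1 fell with the index and 2 did not pass. Scn2a1, the main channel of developing central axons, had 18.8, 21.9, 23.3 and 34.6 CPM in KO_alpha3, 27, 28, 29.6 and 36 in KO_beta, 21.5, 23.3, 31.1 and 31.5 in WT_beta, and 16.9, 21.9, 31.8 and 37.7 in WT_alpha3. WT_alpha3 79 was its lowest library and WT_alpha3 55 its highest, as for Scn10a and Scn11a, and the groups overlapped. It fell with a slope of -0.29 ± 0.05 (edgeR adjusted p = 0.000522). Scn4a, the skeletal muscle channel, and Scn4b, a further β subunit gene, at means of 0.644 and 0.443 CPM over the 16 libraries, did not pass.

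Among proteins that bind the channels, the fibroblast growth factor homologous factors attach to the C terminus of α subunits, and 2 of 4 fell with the index: Fgf12 with a slope of -0.41 and Fgf13 with -0.30, with Fgf14 at -0.22 and Fgf11 at -0.06 not passing. Of 9 ankyrin, spectrin and adhesion genes listed for anchoring, 6 fell: the adhesion genes Cntn1 (-0.44), L1cam (-0.25) and Nrcam (-0.19), the spectrin genes Sptbn4 (-0.33) and Sptbn1 (-0.30), and Ank2 (-0.29). Ank3, the ankyrin G gene of the initial segment, Nfasc and Cntn2 did not pass. Of 10 tested genes of channel trafficking and turnover, 7 fell and 0 rose. The largest slopes were those of Pdzd2, at -0.41, and of S100a10, which brings Scn10a channels to the membrane, at -0.31.

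Of 13 transcription factors and receptors of sensory neurons, 7 fell with the index and 4 rose. Runx1, which sets the nociceptor fate, had a slope of -0.73 ± 0.09, Ret, the receptor of the GDNF family, -0.59, and Etv1, a factor of proprioceptive neurons, -0.46. Those that rose were Shox2 (0.35), Runx3 (0.34), Pou4f1 (0.15) and Ntrk3, the receptor of neurotrophin 3 (0.13). Ntrk2, the receptor of brain-derived neurotrophic factor, fell with -0.11. Isl1 and Tlx3 did not pass. All slopes are from the same edgeR fit and threshold, beside 26.1% of all genes falling and 20.5% rising.

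**Figure D5:**
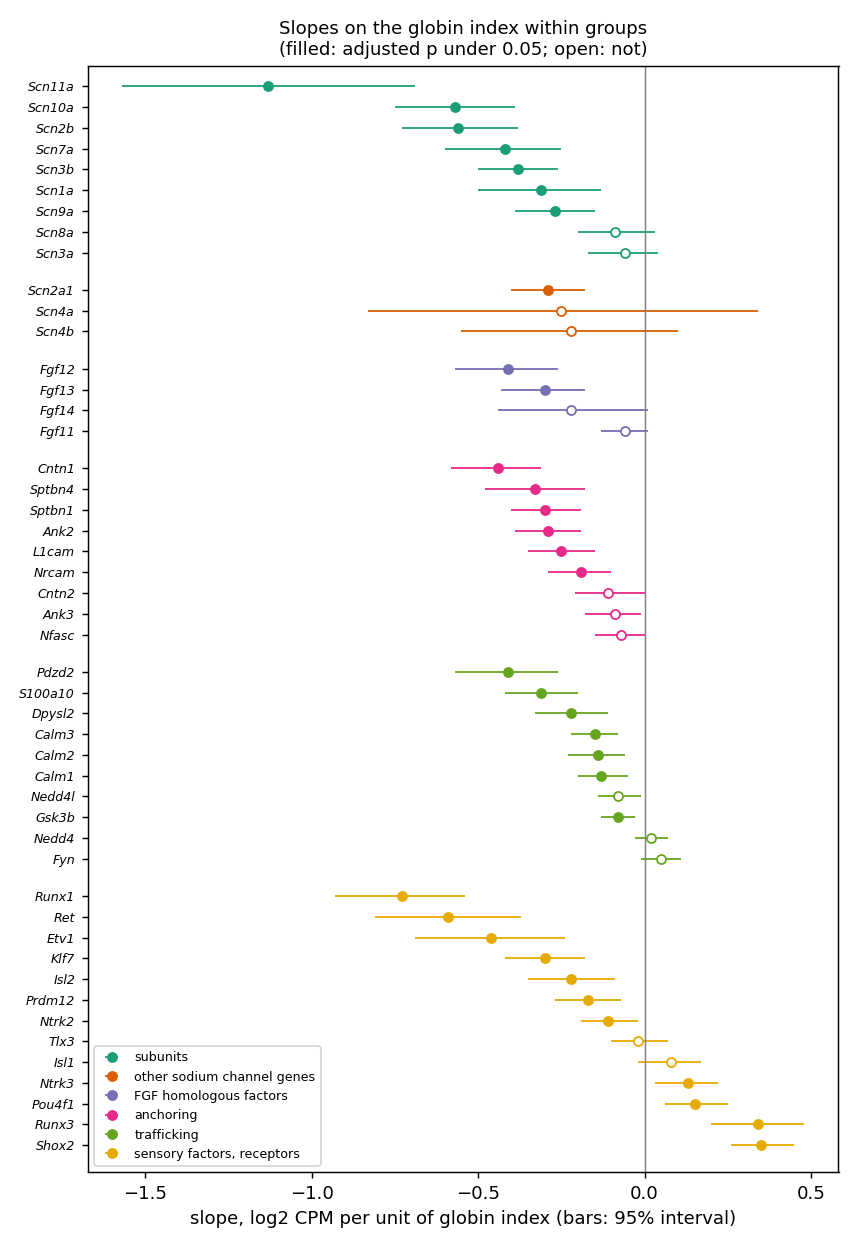
Slope of log2 level on the globin index within groups, per unit of index, with its 95% interval, for the 9 subunits and for the lists of related genes; filled symbols passed the adjusted threshold of the edgeR fit over all genes. Negative values mean lower levels at a higher index: 7 of 9 subunits are filled and negative, from -1.13 (Scn11a) to -0.27 (Scn9a).

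As a description of which transcripts ran most alike, Pearson's r of log2 levels over the 16 libraries was taken against 13400 genes at 1 CPM or more. Scn10a ran most like Mboat2 (r = 0.985) and Slc4a4 (0.980), Scn11a like Atp2b1 (0.981) and Susd2 (0.978), and Scn9a like Fry (0.974) and Kidins220 (0.970). Scn2b ran most like Tbc1d8 (0.991) and Ly6h (0.990), Scn3b like Cntnap4 (0.986) and Myt1l (0.984), and Scn7a like the channel genes Kcnd1 and Cacna1b (0.980 each). The best matches were looser for the remaining 3: Gria2, a glutamate receptor gene, for Scn3a (0.937), Ccdc136 for Scn1a (0.908) and Mink1 for Scn8a (0.893). All of these values share the same libraries, their depth and their index. Among the 36 pairs of the 9 genes r was 0.19 to 0.95, and among the 21 pairs of the 7 that fell with the index 0.53 to 0.95.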

How the data were processed

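Every test used the raw count per gene symbol that the authors deposited. A second deposited table holds the authors' normalized signal; it is the count times 1 constant per library and was not tested separately. The submitters' processing notes name mm10, HTSeq 0.6.1p1, TopHat2 2.0.10, bcl2fastq 2.17.1.14, DESeq2 1.6.3 and cutadapt. The sources used here do not give the annotation or the strand setting, so reads of overlapping genes on opposite strands cannot be told apart. Of 24421 symbols, 3922 had no count in any library and 24312 matched RefSeq.

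The main tool was edgeR 4.0.16 under R 4.3.3 (TMM scaling, filterByExpr with a minimum count of 10 and a minimum total of 15, 15641 genes kept, quasi-likelihood tests, Benjamini-Hochberg adjustment at 0.05). Knockouts were compared with 8 wild types in a fit of 3 groups, the lines in a fit of 4 groups, and slopes in 4 groups plus the globin index. The SE is the log2 value over the root of the F statistic. DESeq2 1.42.0 was an alternative, and correlations used scipy 1.17.1 with a pseudocount of 1. The code of the tests was tried on simulated counts with known changes and the same spread for every gene. Those counts lack the variation that these libraries share, so they do not give error rates for these data. Libraries within a group differed beyond sampling noise (chi-square over its degrees of freedom 6.3 to 137).

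The 9 genes and all lists were chosen with earlier results of these data known. Named genes were the 9, 3 further sodium channel genes, and the members of the partner and sensory lists, without some genes that are not reported here. The split into 11 and 5 libraries, the Hox10 genes and the slopes by line were chosen after the data were seen. Lists were compared by counts and medians only.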

Additional observations from a re-analysis of the deposited data

Results flagged for a closer look

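In 36 sets of 4 libraries (9 genes in 4 groups), the gap between an extreme library and its nearest neighbour was set against the range of the group, and 2 exceeded Dixon's critical share; chance gives about 1 in 20. Both concern KO_alpha3 50. Scn1a was at 10.4 CPM there, against 4.51, 4.67 and 5.39 CPM in the other 3 libraries of the group (gap over range 0.849). Scn11a was at 20.6 CPM there, against 2.67, 3.2 and 5.21 CPM (gap over range 0.858). KO_alpha3 50 also had the lowest globin index of its group, -6.81; the part of the index in these values was not tested.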

How the results depend on the processing

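No paired analysis was possible because no library number is shared between groups. In every knockout and line alternative run, none of the 9 genes passed. The number of genes past the threshold was 128 in KO_alpha3, 1 in KO_beta and 29 between the wild types with DESeq2, 8 in KO_alpha3 with the pan-neuronal covariate, and 5 between the wild types with the index as covariate. Leaving out 1 library gave 1 to 124 genes in KO_alpha3 (124 without KO_alpha3 50), 2 to 7 between the wild types (5 without KO_alpha3 50 and 7 without KO_alpha3 81, which share the fit), 5896 to 7798 for the index and 6 to 7 of the 9 genes falling with it. Genes past the threshold for the index numbered 4261 without the 4 libraries set aside for other tissues, 526 with the pan-neuronal covariate, 693 in the β line alone and 292 without the 5 libraries of high index, against 7298. Of the 9 genes, 0, 0 and 1 fell in the last 3 of these, and 0 (β line) and 4 (without the 5) passed the correlation test by r. Leaving out 1 library, 7 passed by r.

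Signs turned for log2 fold changes and slopes that had not passed. In KO_alpha3, Scn7a was at 0.15 with the index and 0.02 without the 5 libraries; Scn9a at -0.22 without the 4 and -0.01 with the pan-neuronal covariate; Scn10a at 0.01 with its own wild types, 0.24 with the index, 0.12 without the 5, 0.01 without the 3 low in Hox10 and 0.04 with the Hox10 covariate; Scn2b at 0.01 and 0.05 with the index and without the 5. In KO_beta, Scn1a was at -0.25 without the 4, -0.13 with the pan-neuronal covariate, -0.08 with the index, -0.11 with the Y-linked covariate, -0.16 without the 5 and -0.08 without the 3. Scn8a was at -0.08 without the 4 and with the Y-linked covariate and -0.02 without the 5 or the 3. Scn2b was at -0.25, -0.19, -0.07, -0.16 and -0.14 in the order of the first 5 settings given for Scn1a. Scn7a was at -0.09, Scn10a at -0.01 and Scn3b at -0.03 without the 4, Scn3b at -0.01 with the pan-neuronal covariate and Scn11a at 0.57 with its own wild types. Between the wild types, Scn9a was at -0.02, Scn10a at -0.30 and Scn3b at -0.22 without the 4, and Scn3b at -0.02 with the index. The slope of Scn3a was 0.12 without the 5 and 0.08 without the 3, and its r was 0.02 without the 2 farthest libraries, 0.32 without the 5 and 0.26 without the 3.

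Leaving out 1 library, the log2 fold changes that turned sign ran in KO_alpha3 from -0.33 to 0.1 (Scn7a), -0.13 to 0.03 (Scn8a), -0.04 to 0.14 (Scn9a), -0.25 to 0.19 (Scn10a), -1.73 to 0.01 (Scn11a) and -0.68 to 0.02 (Scn2b). They ran in KO_beta from -0.12 to 0.18 (Scn1a), -0.06 to 0.14 (Scn8a) and -0.48 to 0.51 (Scn11a). Between the wild types they ran from -0.32 to 0.04 (Scn1a), -0.02 to 0.15 (Scn3a), -0.43 to 0.17 (Scn7a), -0.02 to 0.32 (Scn9a), -0.18 to 0.46 (Scn10a), -0.37 to 0.22 (Scn2b) and -0.14 to 0.26 (Scn3b). The cause of these changes was not tested. An index from Hba-x over Hba-a1 and Hba-a2 was not run, because the adult α globin genes were listed at 0 in all 16 libraries. Depth limits Scn11a most, at 23 counts in its lowest library.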
